A study of Mus musculus with 5 samples.

Results

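The 10 genes described here are 3 ligands of the vascular endothelial growth factor (VEGF) family, their 3 receptor tyrosine kinases, the co-receptor neuropilin 1, the angiopoietins Angpt1 and Angpt2, and the angiopoietin receptor Tek. They are Vegfa, Vegfb, Vegfc, Flt1, Kdr, Flt4, Nrp1, Angpt1, Angpt2 and Tek. They were taken by symbol out of 32285 genes in the deposited matrices, and all 10 were found in both. Their RNA was summed over nuclei sorted into cell classes by marker genes, none of which is 1 of the 10.

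VEGF ligands are secreted and bind receptors on endothelial cells. Vegfa is the main driver of new vessel growth and acts through Kdr (VEGFR2), while Flt1 (VEGFR1) binds Vegfa and Vegfb tightly and signals weakly. Vegfc acts on Flt4 (VEGFR3), the receptor best known from lymphatic vessels. Angpt1, from cells around the vessel, activates Tek (Tie2) on the endothelium and steadies the vessel, and Angpt2 can oppose it. Brown fat is among the most densely vascularised tissues, and its adipocytes are known to make Vegfa.

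Single-nuclei RNA sequencing (snRNA-seq) of mouse interscapular brown adipose tissue (iBAT) was deposited as 2 matrices with 5 libraries. The 3-month matrix holds a littermate control (WT) library and a UCP1-STX4KO library, both from 3-month-old mice, in which Cre under the Ucp1 promoter deletes a floxed Stx4a in brown adipocytes. The aging matrix holds libraries from C57BL/6J mice of 2, 12 and 24 months. Sorted nuclei came from 4 male mice, whose division among libraries was not given, and each condition has a single library without replicates. Barcodes end in a suffix that separates the libraries, but no label ties it to a genotype or an age. Libraries are therefore named by suffix, no genotype or age was compared, no p-value was computed, and the deleted gene could not be used to check the labels.

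Levels are given as UMIs (unique molecular identifiers, each standing for a captured RNA molecule) of a gene per 1000000 UMIs of the class (CPM). Intervals are 95% exact Poisson intervals for CPM and exact conditional binomial intervals for ratios of CPM, and cover counting error only, not the spread between mice. Libraries feed the classes unequally, so ratios within libraries are given wherever the pooled ratio lies outside their range. A median of 5998 and 3284 UMIs per nucleus was found in suffixes 1 and 2 of the 3-month matrix, against 891, 1635 and 1720 in suffixes 1, 2 and 3 of the aging matrix. All samples are labelled as brown adipocytes, and the sort was meant to give adipocyte nuclei. By the markers, 14990 of 20307 nuclei (73.8%) of the 3-month matrix were adipocyte and 446 endothelial. In the aging matrix only 1247 of 30000 (4.16%) were adipocyte, while 17872 (59.6%) were endothelial and 3498 mural, the class of pericytes and vascular smooth muscle. Its label therefore does not describe most of its nuclei. Nuclei that met 2 gates, possible doublets, were left out (290 and 1038) and no doublet caller was run. Any 2 libraries shared between 23 and 45 barcodes, at most 0.450% of a library.

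RNA free in the suspension adds UMIs of the abundant class to every nucleus. In the 3-month matrix the summed adipocyte markers stood in the other classes at 20.4% to 40.5% of their adipocyte level, and endothelial markers stood outside the endothelium at 0.584% to 3.11% of their endothelial level. In the aging matrix the same shares were 9.58% to 22.0% for adipocyte markers and 4.32% to 11.4% for endothelial markers. These shares are set beside the members' own below. No profile of free RNA was measured, and a gene's share can differ from that of the summed markers. The part of free RNA in a member's level was therefore not tested.

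The promoters of 4 members are shown because these genes carry the main contrast of the data, with Flt1, Kdr and Tek highest in endothelial nuclei and Vegfa highest in adipocyte nuclei. Each sequence is the 250 bases before the start site in RefSeq (GRCm38.p6), written 5′ to 3′ on the gene's strand. Capitals mark GGAA or its reverse complement TTCC, the core that ETS factors bind. ETS factors, such as Erg, are known regulators of endothelial genes.
Flt1 (chr5:147726012-147726261, minus strand): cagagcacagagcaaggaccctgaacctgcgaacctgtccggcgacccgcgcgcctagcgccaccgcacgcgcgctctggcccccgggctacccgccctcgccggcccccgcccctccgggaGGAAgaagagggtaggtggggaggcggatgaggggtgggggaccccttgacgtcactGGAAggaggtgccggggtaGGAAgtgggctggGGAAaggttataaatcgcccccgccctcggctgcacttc
Kdr (chr5:75978456-75978705, minus strand): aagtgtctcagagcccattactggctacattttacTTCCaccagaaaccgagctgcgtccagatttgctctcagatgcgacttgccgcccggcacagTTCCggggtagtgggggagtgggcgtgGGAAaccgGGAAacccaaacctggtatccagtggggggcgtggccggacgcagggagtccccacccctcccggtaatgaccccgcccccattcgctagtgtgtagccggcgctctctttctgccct
Tek (chr4:94739039-94739288, plus strand): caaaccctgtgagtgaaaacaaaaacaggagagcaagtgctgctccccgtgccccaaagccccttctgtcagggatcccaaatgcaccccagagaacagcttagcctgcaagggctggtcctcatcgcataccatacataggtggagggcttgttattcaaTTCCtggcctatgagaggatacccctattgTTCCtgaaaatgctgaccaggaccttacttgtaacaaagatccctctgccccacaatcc
Vegfa (chr17:46032378-46032627, minus strand): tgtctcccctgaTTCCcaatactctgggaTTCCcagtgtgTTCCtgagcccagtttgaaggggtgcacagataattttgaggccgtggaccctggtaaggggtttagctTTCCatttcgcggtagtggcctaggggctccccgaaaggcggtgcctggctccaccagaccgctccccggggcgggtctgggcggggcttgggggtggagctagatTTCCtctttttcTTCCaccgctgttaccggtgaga
The core occurred 4 times before Flt1, 4 times before Kdr, 2 times before Tek and 6 times before Vegfa. So short a motif is common: 93.4% of 32817 promoters of the same length held at least 1 copy, with a median of 3, and 8.7% held 6 or more. Another RefSeq start site of Vegfa (chr17:46025164-46025413 for the bases before it, not printed) had 2 copies, so the count for Vegfa depends on the start site. That stretch lies inside the gene, and no GENCODE transcript of Vegfa was found to start near it. The core of the hypoxia response element (ACGTG or GCGTG, on either strand), bound by HIF factors, was present in 38.6% of promoters. It occurred 1 time before Flt1, 2 times before Kdr and 0 times in the printed stretches of Vegfa and Tek. The stretch before the other Vegfa start site, which lies inside the gene, held it 2 times. A promoter was matched for 8 of the 10 members.

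Vegfa was an adipocyte gene in both matrices. The gene is on the minus strand of chromosome 17 (46016993 to 46032369, mm10). In adipocyte nuclei it stood at 1210 CPM (1202 to 1218) and 871 (860 to 882) in suffixes 1 and 2 of the 3-month matrix, and at 794 (751 to 838), 597 (551 to 645) and 567 (504 to 636) in suffixes 1, 2 and 3 of the aging matrix. Endothelial nuclei held 449 and 285 CPM in the former and 80.0, 54.9 and 27.7 CPM in the latter. Adipocyte nuclei were therefore higher in all 5 libraries. The ratio was 2.69 (2.22 to 3.31) and 3.06 (2.63 to 3.59) in the 3-month libraries. It was 9.92 (8.61 to 11.5), 10.9 (9.76 to 12.1) and 20.4 (17.6 to 23.8) in the aging libraries.

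The smaller ratio of the 3-month matrix came with more free adipocyte RNA, whose part in it was not tested. Its endothelial nuclei had Vegfa at 37.1% and 32.7% of the adipocyte level in suffixes 1 and 2, and the summed adipocyte markers at 45.9% and 30.2%. Aging endothelial nuclei had Vegfa at 10.1%, 9.20% and 4.89% of the adipocyte level and the markers at 27.7%, 22.8% and 22.6%. The Vegfa share of endothelial nuclei was below that of the adipocyte markers in 4 of 5 libraries and above it in suffix 2 of the 3-month matrix. The pooled log2 ratio of the 3-month matrix was 1.76, and 0.98 when classes were taken from graph clusters, which held 686 endothelial nuclei.

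Skeletal muscle and stromal nuclei of 3-month suffix 2 held more Vegfa than the marker share. In that library, where 323 nuclei passed the skeletal muscle gate, Vegfa stood at 867 CPM (822 to 915), level with adipocytes at a ratio with an interval of 0.951 to 1.06. The adipocyte markers in these muscle nuclei stood at 21.3% of their adipocyte level, and Vegfa at 99.6% of its own. The part of free RNA in this Vegfa was not tested. Suffix 1 had 9 muscle nuclei, and the aging matrix 0. Under the UMI limits of the study's methods, with 37 muscle nuclei left, muscle was the higher, at a pooled log2 ratio of adipocyte over muscle of -0.55 in place of 0.38. Stromal nuclei had Vegfa at 466 and 392 CPM in suffixes 1 and 2, at 38.5% and 45.0% of the adipocyte level, beside 31.7% and 16.1% for the adipocyte markers. The remaining classes of suffix 2 had Vegfa at 19.6% to 32.7% and the markers at 14.9% to 30.2%, for example 28.5% and 21.6% in T or NK nuclei. Aging stromal nuclei were at 15.5%, 11.8% and 5.46% for Vegfa in suffixes 1, 2 and 3, and at 13.9%, 14.3% and 8.86% for the markers.

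Vegfb, known for its action on fatty acid uptake through Flt1, was sparse, and adipocytes held its highest CPM in every library but 3-month suffix 2. The gene lies on the minus strand of chromosome 19 (6982473 to 6987651). Adipocyte nuclei held 57.2 and 30.3 CPM in suffixes 1 and 2 of the 3-month matrix, and 39.0, 40.1 and 44.2 CPM in suffixes 1, 2 and 3 of the aging matrix. Aging endothelial nuclei held 5.96, 16.8 and 10.6 CPM, a ratio of adipocyte over endothelial of 6.54 (3.78 to 11.9), 2.38 (1.68 to 3.31) and 4.19 (2.58 to 6.51). The same ratio was 1.06 (0.607 to 2.06) and 1.61 (0.892 to 3.23) in the 3-month libraries, so no difference could be shown there. These endothelial nuclei held 12 and 11 UMIs of Vegfb. In 3-month suffix 2, T or NK nuclei held 30.5 CPM, stromal nuclei 28.0 and skeletal muscle nuclei 25.5. Stromal over adipocyte was 0.924 (0.712 to 1.18) there, so these classes were not parted from adipocytes.

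Vegfc was highest in mural nuclei of the aging matrix, and endothelial and stromal nuclei also held it. It lies on the plus strand of chromosome 8 (54077606 to 54187096). In the aging matrix mural nuclei held 208, 174 and 132 CPM, endothelial nuclei 120, 104 and 63.8, and stromal nuclei 137, 86.9 and 45.9, in suffixes 1, 2 and 3. Adipocyte nuclei held 0.620, 9.33 and 5.77 CPM, from 1, 10 and 3 UMIs, so that the fat cell is at the bottom of the order. Mural exceeded endothelial nuclei 1.74-fold (1.54 to 1.98), 1.67-fold (1.46 to 1.90) and 2.07-fold (1.81 to 2.37) in the 3 libraries. The order differed between the 3-month libraries, with 35.9 CPM in endothelial and 144 in mural nuclei of suffix 1, against 151 and 59.6 in suffix 2. Stromal nuclei of these libraries held 48.1 and 17.8 CPM. Stromal nuclei were thus above endothelial nuclei in suffix 1 of each matrix.

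**Figure D1:**
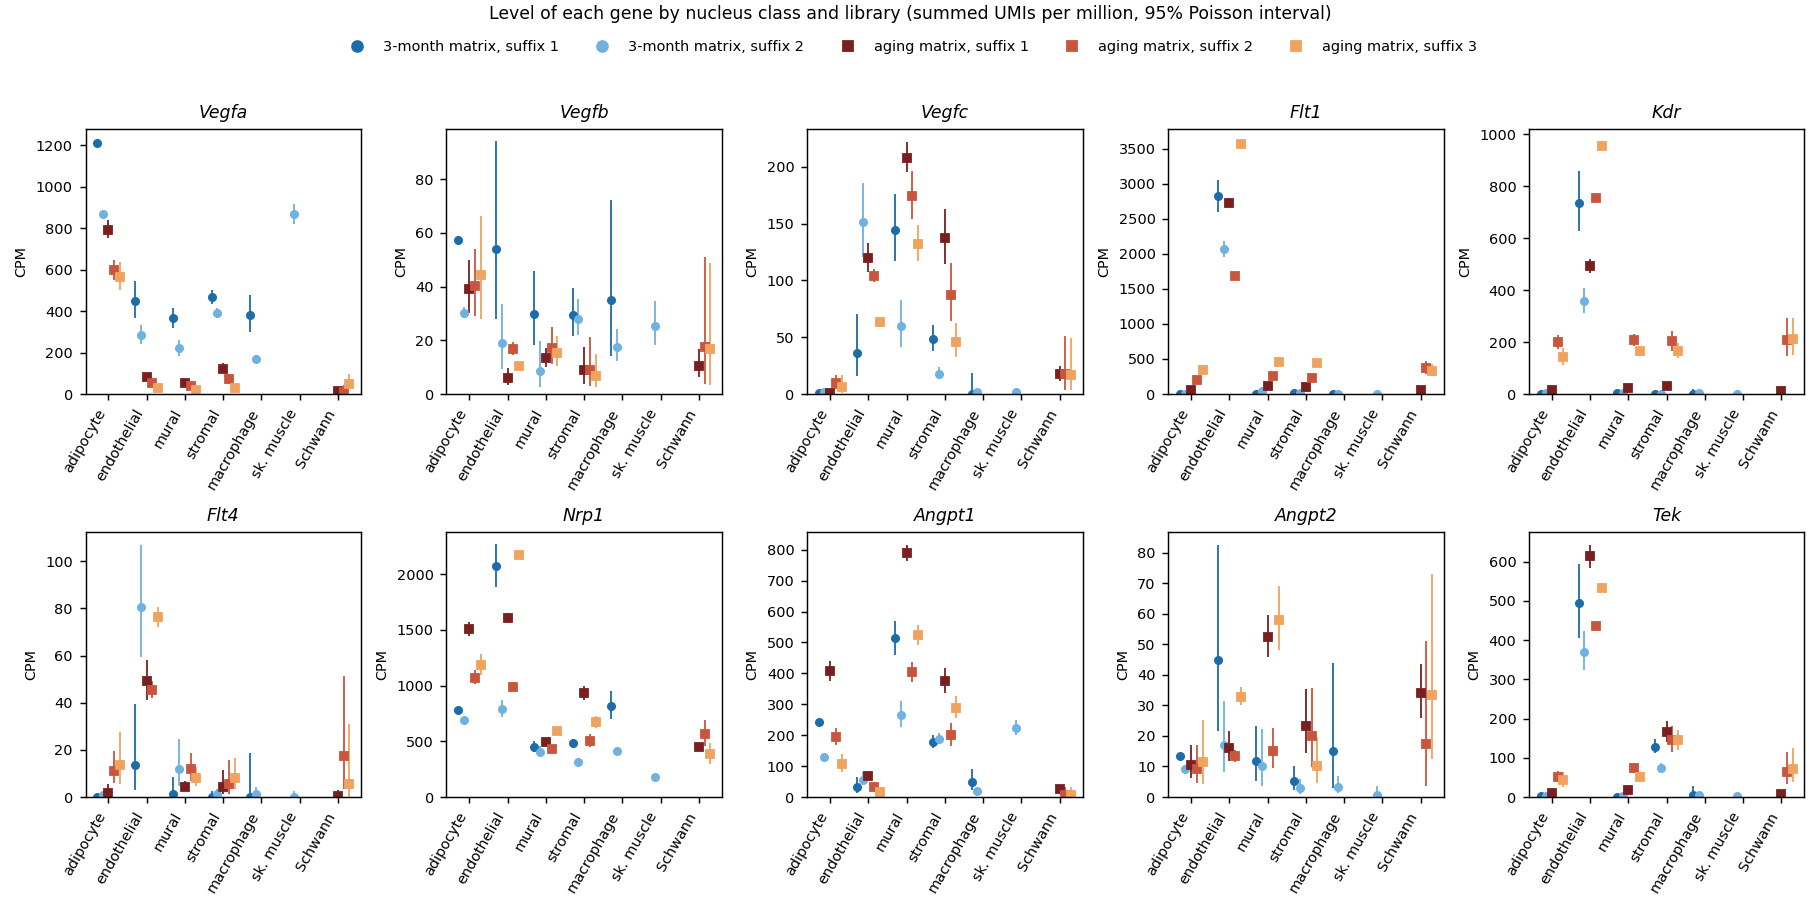
Level of each of the 10 genes (CPM, linear axis from 0) in 7 nucleus classes, with 1 point per library of at least 50 nuclei in the class and 95% Poisson intervals (circles for the 3-month matrix, squares for the aging matrix). Vegfa is highest in adipocyte nuclei, with muscle of 3-month suffix 2 level at 867 CPM. Flt1, Kdr and Tek are highest in endothelial nuclei of all 5 libraries. Angpt1 is highest in mural nuclei, but muscle of 3-month suffix 2, at 224 CPM, could not be parted from its mural nuclei at 266 CPM.

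Vegfc also differed within the endothelium. Endothelial nuclei were divided by markers into capillary, venous, arterial and lymphatic, which gave 11945, 641, 494 and 21 nuclei in the aging matrix. Arterial nuclei held 1101 CPM (874 to 1368), 565 (499 to 637) and 479 (425 to 537) in suffixes 1, 2 and 3. Venous nuclei held 272, 342 and 74.5 CPM, and capillary nuclei 42.7, 55.7 and 35.9. The order arterial, venous, capillary was the same in all 3 libraries with intervals apart. Arterial exceeded capillary nuclei 25.8-fold (18.4 to 36.1), 10.2-fold (8.72 to 11.8) and 13.3-fold (11.4 to 15.6), and venous exceeded capillary nuclei 6.36-fold, 6.14-fold and 2.07-fold. In the 3-month matrix, with 16 arterial and 30 venous nuclei, these ratios were 19.0 (8.12 to 46.9) and 15.1 (7.26 to 34.5). On the log2 scale the venous ratio of 3.92 became 2.40 under the methods' limits and 2.14 with nuclei thinned to 1000 UMIs, and the arterial ratio of 4.25 became 3.30 without the deepest 10% of nuclei.

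Clusters built without the 10 genes gave the same contrast. In each aging library the highest Vegfc was in a cluster led by Nebl, Mannr and Lama3, with 972 CPM (853 to 1103) in suffix 1, 921 (860 to 985) in suffix 2 and 575 (532 to 620) in suffix 3. Bmx, a marker of arterial endothelium, was among the leading genes of 2 of them. Clusters led by Sele and Selp, adhesion molecules of venous endothelium, held 233, 360 and 76.6 CPM. Among mural nuclei, pericytes held 313, 223 and 187 CPM and smooth muscle 91.6, 52.6 and 73.9, a ratio of smooth muscle over pericyte of 0.313 (0.271 to 0.361). The 27 smooth muscle nuclei of the 3-month matrix gave no settled order, with a log2 ratio that turned to -0.37 without suffix 1.

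The receptors were endothelial. Flt1 lies on the minus strand of chromosome 5 (147561604 to 147726011), the start site being next to the first promoter shown above. Endothelial nuclei held 2820 and 2066 CPM in suffixes 1 and 2 of the 3-month matrix, and 2732, 1678 and 3571 CPM in suffixes 1, 2 and 3 of the aging matrix. Adipocyte nuclei held 2.56 and 6.30 CPM in the former, and 54.5, 207 and 340 CPM in the latter. The endothelial level was thus higher in every library, by 1103-fold (934 to 1307) and 328-fold (279 to 387) in the 3-month matrix, and by 50.1-fold (40.6 to 62.5), 8.11-fold (7.10 to 9.30) and 10.5-fold (9.05 to 12.2) in the aging matrix. The aging adipocytes held Flt1 at 2.00%, 12.3% and 9.53% of the endothelial level, where the summed endothelial markers stood at 2.11%, 9.87% and 7.06%. The Flt1 share was above the marker share in suffixes 2 and 3, and the part of free endothelial RNA in it was not tested.

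Flt1 did not show a fixed order between capillary and venous nuclei. The ratio of venous over capillary was 0.737, 1.19 and 0.811 in suffixes 1, 2 and 3 of the aging matrix, each with an interval that excludes 1. It was 0.838 (0.714 to 0.979) in the 3-month matrix, where it rose above 1 under several other ways of processing. Lymphatic nuclei stood apart: 0 UMIs were counted in 9 lymphatic nuclei of the 3-month matrix, with a Poisson upper limit of 169 CPM. The ratio of lymphatic over capillary was 0.141 (0.0838 to 0.223) in the aging matrix.

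Kdr, the main signalling receptor of Vegfa, was lower in venous than in capillary nuclei. Its gene is on the minus strand of chromosome 5 (75932827 to 75978458). Endothelial nuclei held 736 and 358 CPM in suffixes 1 and 2 of the 3-month matrix, and 493, 756 and 957 CPM in suffixes 1, 2 and 3 of the aging matrix. Adipocyte nuclei held 1.24 and 2.11 CPM in the former and 13.6, 199 and 142 in the latter, and the ratio of endothelial over adipocyte was 595 and 170 in the former, and 36.2, 3.81 and 6.72 in the latter. In aging adipocytes Kdr was at 2.76%, 26.3% and 14.9% of the endothelial level, beside 2.11%, 9.87% and 7.06% for the endothelial markers. The other aging classes of suffix 2 showed like shares, 27.3% in mural, 26.8% in stromal and 27.8% in Schwann or nerve nuclei, so adipocytes did not stand above the other classes.

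Within the aging endothelium, capillary nuclei held Kdr at 603, 808 and 1024 CPM in suffixes 1, 2 and 3, and venous nuclei at 167, 378 and 531. Venous nuclei were lower in all 3 libraries, with a ratio of 0.486 (0.451 to 0.523). Arterial nuclei, at 204, 625 and 804 CPM, were also below capillary nuclei. The 3-month matrix gave a venous over capillary ratio of 0.241 (0.127 to 0.420), a log2 ratio of -2.05 that became -0.96 with nuclei thinned to 1000 UMIs. The Sele and Selp clusters had Kdr at 187, 345 and 327 CPM. In each aging library, then, arterial and venous nuclei held more Vegfc and less Kdr than capillary nuclei.

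Flt4, the receptor of Vegfc, was highest in the few lymphatic nuclei. Its gene is on the plus strand of chromosome 11 (49609263 to 49652739). Over all endothelial nuclei it stood at 13.5 and 80.6 CPM in suffixes 1 and 2 of the 3-month matrix, and at 49.1, 45.3 and 76.3 CPM in suffixes 1, 2 and 3 of the aging matrix. Adipocyte nuclei held 0.153 and 0.852 CPM in the former and 1.86, 11.2 and 13.5 CPM in the latter, and so were lower in each library. The 9 lymphatic nuclei of the 3-month matrix held 20 UMIs, or 915 CPM (559 to 1413). The 10, 6 and 5 lymphatic nuclei of aging suffixes 1, 2 and 3 held 1867 (1293 to 2608), 436 (160 to 948) and 978 (535 to 1641) CPM. Capillary nuclei held 40.2, 45.7 and 78.7 CPM, and each library's lymphatic interval was above its capillary one. Pooled over the aging matrix the ratio was 19.1 (14.3 to 25.1), a log2 ratio of 4.25 that became 3.50 without suffix 1. The capillary level exceeded that of mural nuclei of the same libraries, which held 4.25, 11.7 and 7.90 CPM. Because 11945 nuclei were capillary and 21 lymphatic, most Flt4 UMIs of the aging matrix came from blood endothelium: 1282 were counted in capillary nuclei and 54 in lymphatic nuclei.

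**Figure D2:**
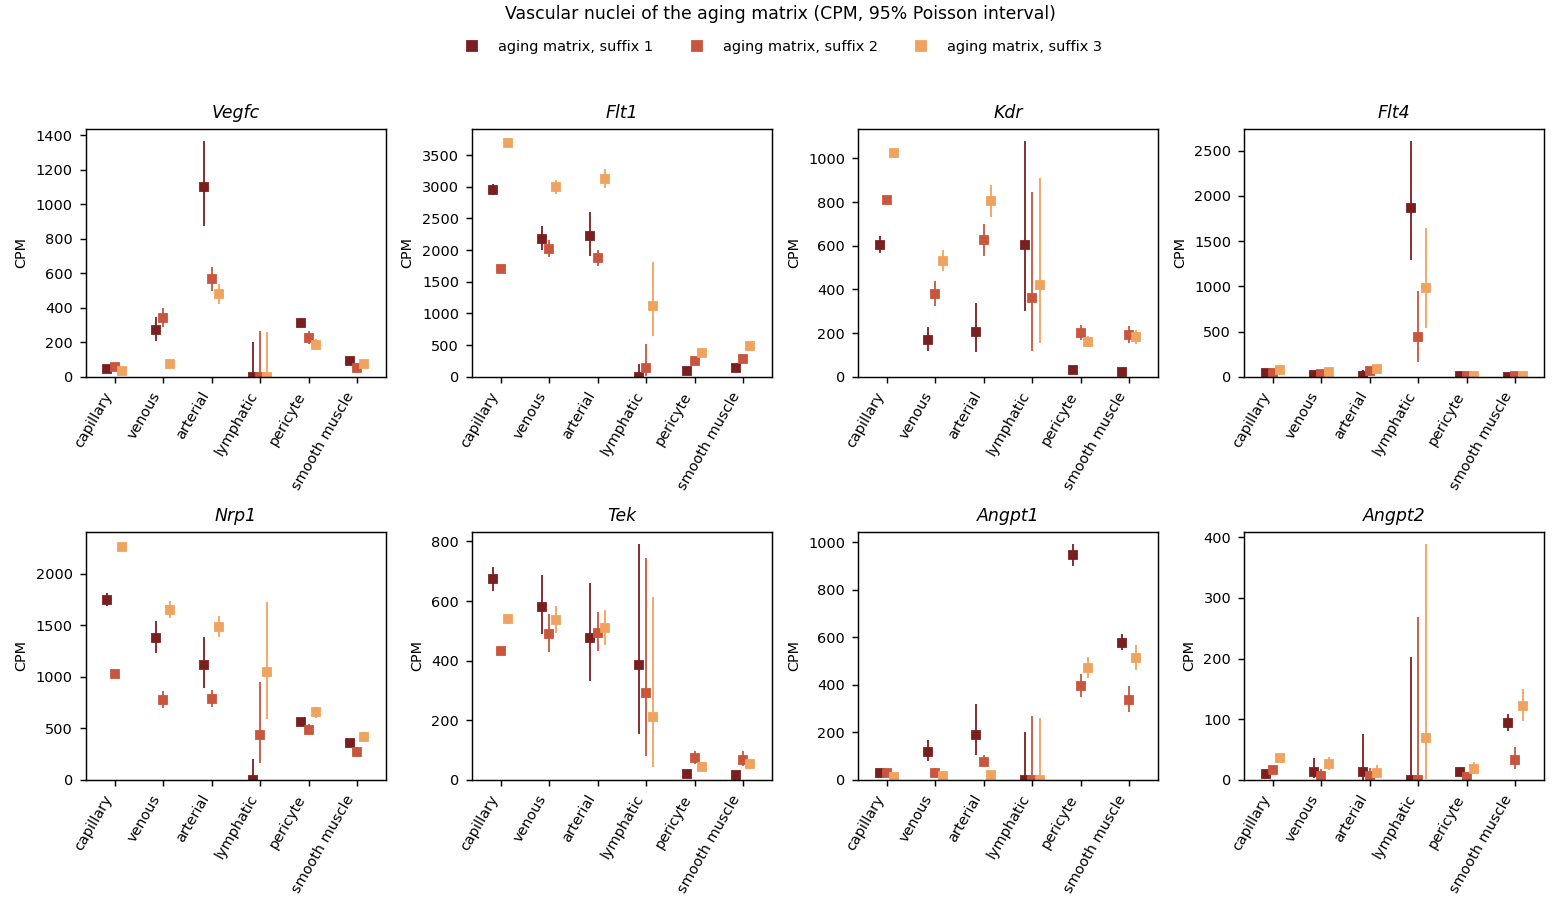
Level of 8 of the genes (CPM, linear axis from 0) in 4 endothelial and 2 mural subclasses of the aging matrix, with 1 square per library and 95% Poisson intervals, which are wide for the 10, 6 and 5 lymphatic nuclei. Vegfc peaks in arterial nuclei at 479 to 1101 CPM, Kdr is lower in venous than in capillary nuclei of each library, Flt4 peaks in lymphatic nuclei, and Angpt2 in smooth muscle.

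Nrp1, a co-receptor for Vegfa and a receptor for semaphorins, was shared between endothelium and adipocytes. It lies on the plus strand of chromosome 8 (128358604 to 128503363). Endothelial nuclei held 2075 and 794 CPM in suffixes 1 and 2 of the 3-month matrix, and 1606, 990 and 2172 CPM in suffixes 1, 2 and 3 of the aging matrix. Adipocyte nuclei held 785 and 692 CPM in the former and 1508, 1073 and 1190 CPM in the latter. Endothelium was the higher class in 4 of 5 libraries, with ratios of 2.64 (2.41 to 2.90), 1.15 (1.04 to 1.26), 1.07 (1.01 to 1.12) and 1.83 (1.69 to 1.98). In aging suffix 2 the adipocyte nuclei led, at 1.08 (1.02 to 1.15), and without suffix 3 the pooled log2 ratio of endothelial over adipocyte turned to -0.28.

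The Nrp1 of adipocytes was far above the share of endothelial markers. It stood at 66.1% of the endothelial level in 3-month and 80.6% in aging adipocytes, where endothelial markers stood at 1.19% and 5.19%. UMIs of Nrp1 were counted in every class with at least 50 nuclei. The lowest pooled values were 178 CPM in skeletal muscle of the 3-month matrix and 451 CPM in Schwann or nerve nuclei of the aging matrix. That muscle held Nrp1 at 23.4% of the adipocyte level, below the 29.0% of the adipocyte markers, though at 25.5% beside 21.3% in suffix 2 alone. In the other pooled classes the Nrp1 share was above that of the adipocyte markers. The part of free adipocyte RNA in these levels was not tested. Within the endothelium Nrp1 was highest in capillary nuclei, and aging venous nuclei were at 0.789, 0.757 and 0.730 of the capillary level in suffixes 1, 2 and 3. Arterial nuclei were at 0.638, 0.764 and 0.657 of it, and all 6 intervals lay below 1. The Sele and Selp clusters held Nrp1 at 1719, 612 and 1218 CPM, beside 1748, 1026 and 2258 CPM in capillary nuclei. In suffix 1 that cluster, with an interval of 1570 to 1879, was thus not below the capillary level. Among mural nuclei smooth muscle was at 0.632 (0.586 to 0.681) of the pericyte level.

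Angpt1, the activating ligand of Tek, had its highest CPM in mural nuclei of all 5 libraries, though muscle of 3-month suffix 2 could not be parted from them. The gene is on the minus strand of chromosome 15 (42424723 to 42676977). Mural nuclei held 513 and 266 CPM in suffixes 1 and 2 of the 3-month matrix, and 789, 404 and 523 CPM in suffixes 1, 2 and 3 of the aging matrix. Adipocyte nuclei held 244 and 130 CPM in the former and 406, 195 and 106 CPM in the latter. Endothelial nuclei were lowest of the 3, at 31.4 and 56.6 CPM, and at 68.1, 31.3 and 15.6 CPM. The ratio of mural over adipocyte was 2.10 and 2.05 in the 3-month libraries and 1.94, 2.07 and 4.95 in the aging libraries. Adipocyte over endothelial gave 7.76 and 2.29, and 5.97, 6.23 and 6.76, with all intervals above 1. Aging adipocytes held Angpt1 at 44.4% of the mural level, where the mural markers stood at 2.84%. The part of free mural RNA in their Angpt1 was not tested.

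Angpt1 was also present in stromal nuclei, at 179 and 189 CPM in the 3-month matrix and 375, 199 and 289 CPM in the aging matrix, and in skeletal muscle of 3-month suffix 2, at 224 CPM (201 to 248). In that library mural nuclei exceeded muscle 1.19-fold (0.976 to 1.44), so the 2 classes could not be parted. Pericytes of the aging matrix held 945, 394 and 471 CPM, and smooth muscle 577, 335 and 512. Their order was settled in aging suffix 1 alone among these, where smooth muscle was at 0.611 (0.566 to 0.660) of the pericyte level, while suffixes 2 and 3 gave 0.851 (0.692 to 1.04) and 1.09 (0.942 to 1.25). The 3-month matrix went the other way in suffix 1, with 2257 CPM (1726 to 2899) in 7 smooth muscle nuclei and 446 (391 to 506) in pericytes, while suffix 2 held 322 (176 to 539) in 20 smooth muscle nuclei and 215 (173 to 265) in pericytes. The pooled log2 ratio of 1.63 there ran from 0.56 to 2.34 over the alternatives, 0.58 being the value without suffix 1. An antisense gene, Gm17473, overlaps the start of Angpt1, at 11.9 CPM in 3-month mural nuclei.

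Angpt2, the context-dependent partner of Angpt1, was a smooth muscle gene in the aging matrix. It lies on the minus strand of chromosome 8 (18690263 to 18741562). Smooth muscle nuclei held 93.7, 32.9 and 122 CPM in suffixes 1, 2 and 3, and pericytes 13.4, 4.62 and 18.1 CPM. Smooth muscle exceeded pericytes in all 3 libraries, by 7.07-fold (5.10 to 10.0) when pooled. In aging smooth muscle, then, Angpt2 was above its pericyte level, and Angpt1 was not shown to be above its own in any of the 3 libraries. In the 3-month matrix both were higher in smooth muscle when pooled, with 5 UMIs of Angpt2 in its 27 smooth muscle nuclei and 3 in its 353 pericytes. Mcph1, which overlaps Angpt2 on the opposite strand, did not follow it, at 40.8 CPM in smooth muscle and 57.2 CPM in pericytes of the aging matrix.

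Endothelial nuclei of the aging matrix held Angpt2 at 16.1, 13.4 and 32.9 CPM. In suffix 3 the endothelial clusters ranged from 11.8 to 75.8 CPM. The highest, at 75.8 CPM (58.8 to 96.1), was led by Inhbb, Lipg and Adamts4. The next, at 52.8 CPM (44.8 to 61.8), had Apln, a peptide ligand known from sprouting endothelium, among its leading genes, together with the lymphatic markers Ccl21a and Mmrn1. A cluster of suffix 2 with Apln and Col28a1 held 18.0 CPM (13.4 to 23.6), and another of that library 18.4. Schwann or nerve nuclei held 34.0, 17.5 and 33.5 CPM in the aging libraries, from 61, 3 and 6 UMIs. Adipocyte nuclei held 10.5, 9.33 and 11.5 CPM. Endothelial nuclei of the 3-month matrix held 44.9 and 17.1 CPM, from 10 UMIs in each suffix, beside 13.5 and 9.30 in adipocyte nuclei, and no class could be called highest.

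Tek lies on the plus strand of chromosome 4 (94739289 to 94874976). It was endothelial, with a clear second level in stromal nuclei. Endothelial nuclei held 494 and 370 CPM in suffixes 1 and 2 of the 3-month matrix, and 614, 436 and 533 CPM in suffixes 1, 2 and 3 of the aging matrix. Stromal nuclei held 128 and 74.6 CPM in the former, and 166, 145 and 145 CPM in the latter. Mural nuclei held 0 and 1.70 CPM, and 18.8, 73.0 and 50.6 CPM. Among classes of at least 50 nuclei, stromal nuclei thus ranked next after endothelium in every library, while 15 T or NK nuclei of aging suffix 2 held 224 CPM. Stromal nuclei exceeded mural nuclei 8.82-fold (6.71 to 11.7), 1.98-fold (1.47 to 2.67) and 2.86-fold (2.19 to 3.72) in the aging libraries. They exceeded adipocytes 96.8-fold (75.4 to 125) and 25.5-fold (19.5 to 33.6) in the 3-month libraries, and 14.9-fold, 2.83-fold and 3.42-fold in the aging libraries. Under the methods' limits the pooled log2 ratio over adipocytes in the 3-month matrix became 1.57 in place of 5.76.

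The stromal Tek was above the share of the endothelial markers, and the part of free endothelial RNA in it was not tested. In 3-month stromal nuclei Tek was at 23.5% of the endothelial level, while endothelial markers were at 2.73%, Flt1 at 0.404% and Kdr at 0.322%. In aging stromal nuclei Tek was at 30.6%, the markers at 9.97%, Flt1 at 9.61% and Kdr at 14.8%. By library, Tek was at 27.0%, 33.2% and 27.1% in suffixes 1, 2 and 3, beside 6.50%, 26.8% and 17.4% for Kdr. The Tek share was thus close to that of Kdr in aging suffix 2, where the markers were at 16.1%. In suffix 2 of the 3-month matrix a cluster of 49 stromal nuclei led by Pi16, Dpp4 and Mfap5, genes of adventitial progenitors, held Tek at 431 CPM (313 to 579), from 44 UMIs. The main stromal cluster of that library, with 1071 nuclei, held 43.0 CPM (36.7 to 50.1). Within the aging endothelium venous nuclei were at 0.863 (0.718 to 1.03), 1.13 (0.985 to 1.29) and 0.996 (0.908 to 1.09) of the capillary level in suffixes 1, 2 and 3. Arterial nuclei were at 0.707 (0.490 to 0.989), 1.14 (0.995 to 1.30) and 0.945 (0.839 to 1.06), and the 21 lymphatic nuclei at 0.603 (0.329 to 1.01) when pooled.

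The 10 genes were then set against all genes in the 1 contrast that spans ligand and receptor, endothelial against adipocyte nuclei. At least 2-fold higher in endothelial nuclei of the 3-month matrix were 6 of the 10, namely Vegfc, Flt1, Kdr, Flt4, Angpt2 and Tek, where 21.3% of 15023 genes with at least 50 UMIs were. Angpt2 was just inside, at 2.01 (1.22 to 3.12). The same 6 were so in the aging matrix, where 23.9% of 13946 genes were. Angpt2 there had a pooled ratio of 2.25 (1.59 to 3.30), but 1.53, 1.43 and 2.85 in suffixes 1, 2 and 3, so only suffix 3 was past 2-fold. On the adipocyte side were Vegfa and Angpt1 in the 3-month matrix, beside 25.4% of all genes, and Vegfa, Vegfb and Angpt1 in the aging matrix, beside 24.2%. The median log2 ratio of endothelial over adipocyte was 4.14 for the 10 genes and 0.00 for all genes in the 3-month matrix, and 2.13 and -0.13 in the aging matrix. Only 3 members passed on the endothelial side when the UMI limits of the study's methods were put on the 3-month matrix. That setting left 298 endothelial and 757 adipocyte nuclei. Neither the number of members with at least 50 UMIs nor the share of all genes is given for it. Lost differences and too few UMIs therefore cannot be told apart there.

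Of 14 other genes of the pathway, 9 in the 3-month and 12 in the aging matrix had enough UMIs. Of the 9, 7 were endothelial by the same rule, but Tie1, Ptprb, Robo4 and Eng are gate markers, so that their place is not a finding. The remaining 3 were Plxnd1, a semaphorin receptor, Dll4, a Notch ligand of tip and arterial cells, and Nos3, the endothelial nitric oxide synthase. In the aging matrix 9 of 12 were endothelial, with Pgf, a further Flt1 ligand, and the apelin receptor Aplnr in addition. Vegfd, the other ligand of Flt4, was at least 2-fold higher in adipocyte than in endothelial nuclei of the aging matrix. Stromal nuclei held more of it, at 24.1 CPM beside 10.9 in aging adipocytes, and 25.4 beside 11.9 in the 3-month matrix. Of the hypoxia-response genes, 3 of 10 were endothelial (Slc2a1, Ankrd37 and Ndrg1) and 3 adipocyte (Bnip3, Pfkfb3 and Vldlr) in the 3-month matrix, against 5 and 4 of 11 in the aging matrix. Thermogenic genes were adipocyte for 4 of 8 and 7 of 8, and endothelial for 0 in both. Over all genes, 21.3% were endothelial and 25.4% adipocyte by this rule in the 3-month matrix, and 23.9% and 24.2% in the aging matrix. The hypoxia counts of the 3-month matrix were near these shares and are a description only.

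Patterns most like those of the members were sought over units of 1 class in 1 library, 13 in the 3-month and 15 in the aging matrix. These units share libraries and free RNA, so the correlations of log2(CPM + 1) are descriptions. Nearest to Flt1 in the aging matrix were Cyyr1 (r = 0.991), Adgrl4 and Ptprb, all endothelial gate markers, and nearest to Kdr were Cldn5 (0.994), Aqp1 and Sema3g. Ushbp1 (0.978) was nearest to Flt1 and Nova2 (0.991) to Kdr in the 3-month matrix. Dll4 (0.972) was nearest to Flt4 in the aging matrix. Nearest to Vegfa were Apoo (0.956), Ndufs1 and Aox1 in the 3-month matrix, of which Apoo and Ndufs1 encode mitochondrial proteins, and Gm26671 (0.983), Slc16a10 and Pnpla3 in the aging matrix. Angpt1 was nearest to Pard3 (0.915) in the former and to 4930438E09Rik (0.966) and Col4a5 in the latter, and Tek to Epha4 (0.955) and Clec1a (0.981). For the remaining members the nearest genes of the aging matrix were Ggnbp1 (0.946) for Vegfb, Atp2b1 (0.965) for Vegfc, Ptprm (0.922) for Nrp1 and Xpo1 (0.832) for Angpt2.

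Adipocyte nuclei were not alike in the ligands. Clusters were built within each library without the 10 genes, and those of at least 50 nuclei are compared. In suffix 1 of the 3-month matrix, Vegfa ran from 805 to 2005 CPM over 9 adipocyte clusters and Angpt1 from 55.4 to 448. In suffix 2, Vegfa ran from 664 to 1404 CPM over 8 clusters and Angpt1 from 30.3 to 284. In both libraries the cluster highest in Vegfa was the lowest in Angpt1. That of suffix 1 had 1032 nuclei, 2005 CPM of Vegfa (1973 to 2038), 55.4 of Angpt1 (50.1 to 61.0) and 347 of Nrp1 (333 to 360), with Ak4, Fbp1 and Ugp2, enzymes of energy and glucose metabolism, among its leading genes. That of suffix 2 had 490 nuclei, 1404 CPM of Vegfa (1368 to 1442), 30.3 of Angpt1 (25.1 to 36.3) and 832 of Nrp1 (804 to 861), and was led by Dgkg and Grhl3. Nrp1 was the lowest of the adipocyte clusters in the former and near the top of the range of 468 to 886 CPM in the latter.

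The cluster highest in Angpt1 in suffix 1 had 1807 nuclei, with 448 CPM (436 to 461), and held Vegfa at 989 CPM. Muscle nuclei of suffix 2 parted in the same 2 genes. A cluster of 51 nuclei led by Myh7 and Tnni1, of slow fibres, held Vegfa at 420 CPM (353 to 497) and Angpt1 at 509 (434 to 592). The cluster of 288 nuclei with Myh4, of fast fibres, held Vegfa at 959 CPM (910 to 1009) and Angpt1 at 149 (131 to 170).

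**Figure D3:**
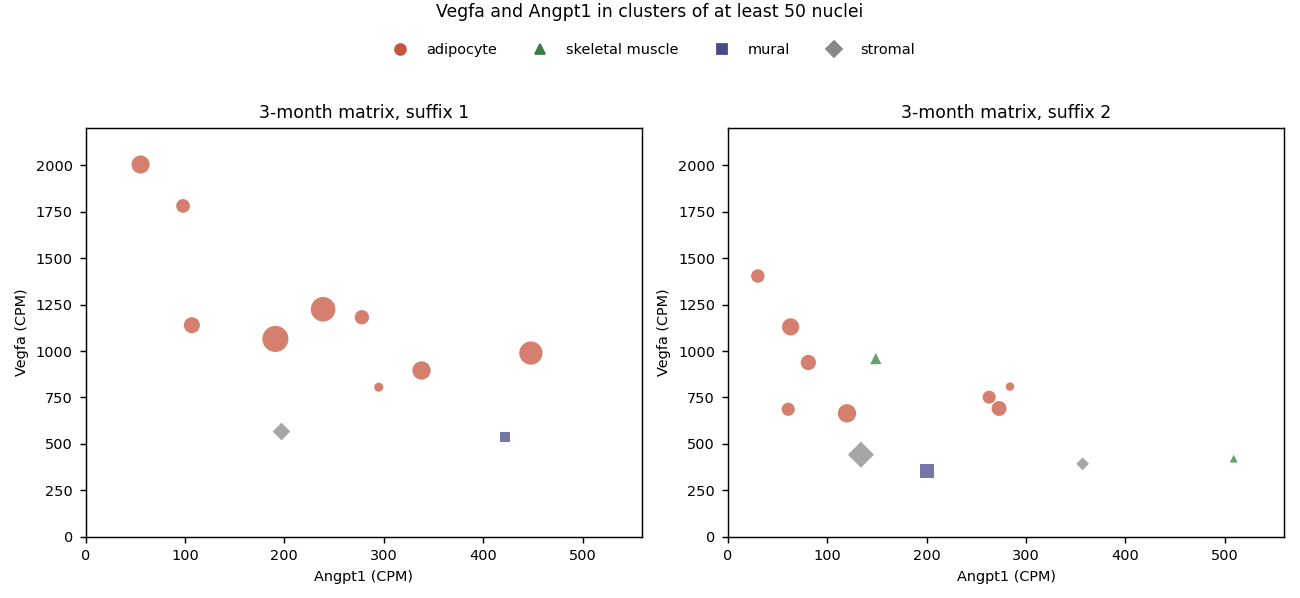
Vegfa against Angpt1 (both CPM, linear axes from 0) in clusters of at least 50 nuclei of the 3-month matrix, 1 panel per library, where colour and shape give the class and the size of a point the number of nuclei. The adipocyte cluster with the most Vegfa, 2005 CPM in suffix 1 and 1404 CPM in suffix 2, has the least Angpt1, and the slow-fibre muscle cluster of suffix 2 has the most Angpt1 of that panel, 509 CPM.

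Vegfa is a classical HIF target, so adipocyte nuclei were also ranked by the summed UMIs of 12 hypoxia-response genes and of 8 thermogenic genes, after thinning each nucleus to 2000 UMIs. The 4 ranges are steps along a scale and not cell types. With the hypoxia list, Vegfa went from 1153 CPM (1125 to 1181) in the lowest to 1376 (1340 to 1414) in the highest range in suffix 1, and from 847 (811 to 883) to 1024 (968 to 1084) in suffix 2. Angpt1 went the other way, from 285 to 179 CPM and from 166 to 98.8 CPM. Pfkfb3, a glycolytic regulator, gave 48.4% and 57.9% of the list's UMIs, so the ranges follow that gene to a large part.

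With the thermogenic list the libraries differed. In suffix 2, Vegfa went from 659 CPM (624 to 695) to 1142 (1094 to 1191) and Angpt1 from 233 (212 to 255) to 60.4 (49.9 to 72.5). In suffix 1 the steps were small for Vegfa, from 1167 to 1245 CPM, and Angpt1 went from 285 to 210. Ppargc1a, a coactivator of mitochondrial genes, made up 79.4% of the list's UMIs in suffix 2, while Cidea, a lipid droplet protein, led in suffix 1 with 31.9%. The 2 aging libraries with enough nuclei had no order that exceeded the intervals for Vegfa. Thinning left out 757 adipocyte nuclei of 3-month suffix 2 and 0 of suffix 1. It left out 246 of the 630 adipocyte nuclei of aging suffix 1 and 168 of the 436 of aging suffix 2. The ranges of these aging libraries held 51 to 159 nuclei, and their intervals were wide.

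**Figure D4:**
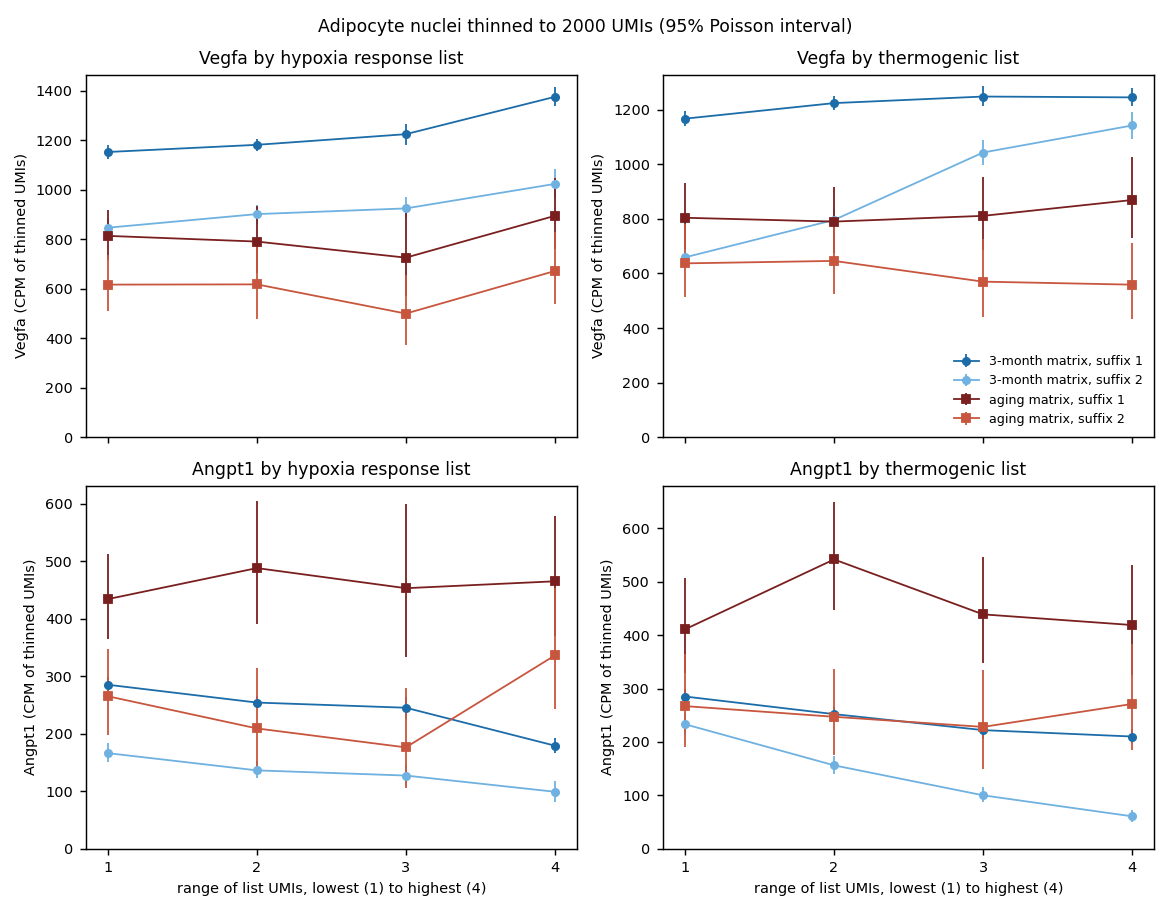
Vegfa and Angpt1 (CPM of thinned UMIs, linear axis from 0) in adipocyte nuclei over 4 ranges of the summed UMIs of the hypoxia-response list and of the thermogenic list, with 1 line per library and 95% Poisson intervals. In both 3-month libraries Vegfa is higher and Angpt1 lower in the highest range than in the lowest, most of all for the thermogenic list in suffix 2, from 659 to 1142 CPM and from 233 to 60.4 CPM.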

How the data were processed

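Raw UMI counts per gene and nucleus were used as the authors deposited them. Per the study's methods and the submitters' processing notes, reads of the 10x Genomics 3′ assay were aligned to mouse mm10 and counted with Cell Ranger 6.1.2, and Seurat 4.1.0 was used downstream; the annotation release is not given in the sources used here. Nuclei with at least 200 UMIs and 100 genes were kept, since the methods' limits of 200 to 2000 UMIs and 100 to 3000 genes leave only 2763 and 18756. A nucleus entered a class when the summed UMIs of its marker list reached a cut per 10000 UMIs (adipocyte 100, endothelial 40, mural 30, stromal 25, macrophage, B or dendritic, and T or NK 15, skeletal muscle 150, Schwann or nerve 60) with at least 3 markers detected, and subclasses needed 2. Counts were summed over nuclei and divided by the class total. Ratios use exact conditional binomial intervals, and nuclei are not replicates, so no test was made. Clusters were built within each library without the 10 genes, on 2000 variable genes and 30 principal components at resolution 0.8. The genes named are the 10 members, fixed lists, and for each member genes nearest by correlation among those with at least 200 UMIs. The lists were 14 genes of the pathway, 12 of the hypoxia response and 8 thermogenic genes, and Ero1a is listed under its older symbol Ero1l. Members and lists were chosen with earlier results of these data known. Python 3.11.15, numpy 2.4.6, scipy 1.17.1, pandas 2.3.3, scanpy 1.11.5 and matplotlib 3.10.9 were used. Gene positions are from GENCODE vM21 and promoters from RefSeq, both on GRCm38. The scripts were tested on simulated counts. Alternatives were graph-cluster classes, a stricter gate, the methods' limits, thinning to 1000 UMIs, keeping nuclei that met 2 gates, CPM without mitochondrial genes and Malat1, leaving out each suffix, and leaving out the deepest 10% of nuclei.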

Additional observations from a re-analysis of the deposited data

How the results depend on the processing

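No paired analysis was possible because each condition has 1 library and suffixes carry no replicate number. Of 376 values of single members recomputed under alternatives, 265 stayed within the counting interval of the reported value, 99 moved past it, and 12 reversed. A further 5 changed sign where that interval already held 0, and 3 of these are among the 99. For Vegfa, the log2 ratio of adipocyte over endothelial in the 3-month matrix was 1.76, and 0.98 with classes from graph clusters, 1.57 under the methods' UMI and gene limits, 2.06 with nuclei thinned to 1000 UMIs, and 1.43 to 1.61 with either suffix left out. In the aging matrix it was 3.98, and 3.63 with graph clusters, 4.10 under the methods' limits, 4.18 without the deepest 10% of nuclei, and 3.59 to 4.37 with 1 suffix left out. Members at least 2-fold higher in endothelial nuclei of the 3-month matrix numbered 6, and 3 under the methods' limits, which leave 2763 nuclei. The share of all genes is not given under those limits, and members can miss the count there for too few UMIs.

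Under those limits, with 37 muscle nuclei left, the log2 ratio of adipocyte over skeletal muscle turned to -0.55 for Vegfa, and that of mural over skeletal muscle to -0.18 for Angpt1. Flt1 in venous over capillary nuclei of the 3-month matrix turned to 0.20 with graph clusters, 0.69 under the limits, 0.22 thinned, 0.21 without the deepest nuclei and 0.12 without suffix 1. In the aging matrix it turned to 0.01 without the deepest nuclei and ran from -0.34 to 0.14 with 1 suffix left out, the highest being without suffix 3. With 1 suffix left out, Vegfc in smooth muscle over pericytes ran from -0.37 to 1.79 in the 3-month matrix, Nrp1 in endothelial over adipocyte nuclei from -0.28 to 0.55 in the aging matrix, and Angpt1 in smooth muscle over pericytes from -0.58 to 0.02 in the aging matrix. Vegfc in endothelial over mural nuclei of the 3-month matrix, 0.19, became -0.22 with graph clusters, -0.46 without the deepest nuclei and -2.00 without suffix 2. The causes were not tested. The number of members with the same leading class in every suffix was 8 in each matrix and stayed between 6 and 10. No share over all genes was computed beside it, so the number is a description only. Vegfb and Vegfc failed in the 3-month matrix, and Nrp1 and Angpt2 in the aging matrix. Angpt2 counted in the 3-month matrix on 10 endothelial UMIs in each suffix, where no class could be called highest. The number could not be computed with a suffix left out of the 3-month matrix, which leaves 1, nor under the methods' limits there.

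Endothelial nuclei of the 3-month matrix hold 20 UMIs of Angpt2, 23 of Vegfb and 50 of Flt4, and lymphatic, arterial and venous nuclei of the 3-month matrix number at most 30. Gate cuts were set after marker levels had been seen.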
